A study of Drosophila melanogaster with 4 samples.

Results

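The alternative promoters of genes with several transcription start sites (TSSs) were examined for H3K4me3, histone H3 trimethylated at lysine 4, in Drosophila melanogaster ovaries. Annotated TSSs of each protein-coding gene (Ensembl, BDGP6 assembly) were joined into start clusters where they lay within 500 bp of each other, and a gene was taken as multi-start when its first and another cluster lay at least 2000 bp apart. This rule gave 1285 of 13968 protein-coding genes. Their 3627 start windows, each reaching 500 bp to either side of a start, are 1285 first windows, 2092 internal windows at least 2000 bp downstream of the first start, and 250 near windows that lie closer to it, out of 17177 start windows of all protein-coding genes. A further 11862 genes had a single start cluster, and 821 had several that lay closer together.

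The 4 ChIP-seq libraries fell into 2 groups of 2. Control ovaries carried the driver alone (Control KD, MTD-Gal4>+), and lid KD ovaries carried the same driver with a short hairpin RNA against lid (MTD-Gal4>shRNA lid). MTD-Gal4 acts in female germ cells, whereas whole ovaries were profiled, so the somatic follicle cells, which do not express the hairpin, contribute to every library. Ovaries of many females were pooled for each replicate. The labels give the age of the females as 3 days in one place and as 0 to 1 day in another, and the study's methods give another age again. The lid gene (Kdm5 in the annotation) encodes a demethylase that removes methyl groups from H3K4me3. It is itself multi-start, and the peak over its first start had a fold enrichment of 5.96 and 6.84 (control) and 6.43 and 6.28 (lid KD). A ChIP library does not report how far the lid transcript was reduced, so the knockdown itself was not checked.

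H3K4me3 marks the nucleosomes just downstream of active start sites, so a peak at an annotated start is commonly read as a sign that the start is in use in some cells of the tissue. Alternative promoters let a gene respond to different tissues or stages, and they often give transcripts that differ in their leader or in the first residues of the protein. In the fly, ubiquitously active promoters are known to carry sequence elements such as the DNA replication-related element (DRE) and Ohler motif 1, whereas promoters of developmentally regulated genes more often carry a TATA box, an initiator or GAGA elements, which the GAGA factor binds.

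The genes below serve as examples, because in at least 1 library a peak was found at only some of their starts. Each sequence runs from 60 bases before the annotated start through the first 40 transcribed bases (RefSeq Release 6 genome, the same assembly as dm6), and capitals mark letters of the 6 motifs searched.
ovo first start, chrX:5048213-5048312, plus strand: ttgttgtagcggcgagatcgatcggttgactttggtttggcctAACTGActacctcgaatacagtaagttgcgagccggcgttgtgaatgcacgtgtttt
ovo internal start, chrX:5064173-5064272, plus strand: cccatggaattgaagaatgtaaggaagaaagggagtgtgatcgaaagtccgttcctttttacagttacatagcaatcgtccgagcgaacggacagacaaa
mael first start, chr3L:22721143-22721242, plus strand: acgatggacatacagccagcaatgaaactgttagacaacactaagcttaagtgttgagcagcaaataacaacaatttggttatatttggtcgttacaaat
mael internal start, chr3L:22724173-22724272, plus strand: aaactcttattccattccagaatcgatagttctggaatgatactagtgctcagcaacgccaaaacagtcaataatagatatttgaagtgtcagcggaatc
bru1 first start, chr2L:12174944-12175043, plus strand: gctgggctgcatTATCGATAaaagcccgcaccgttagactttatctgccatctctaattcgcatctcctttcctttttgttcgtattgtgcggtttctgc
bru1 internal start with a peak, chr2L:12270872-12270971, plus strand: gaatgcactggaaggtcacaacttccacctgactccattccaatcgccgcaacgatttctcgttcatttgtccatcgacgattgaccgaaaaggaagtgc
hb first start, chr3R:8697783-8697882, minus strand: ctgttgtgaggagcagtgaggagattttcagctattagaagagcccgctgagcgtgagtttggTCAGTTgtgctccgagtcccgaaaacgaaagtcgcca
hb internal start, chr3R:8694561-8694660, minus strand: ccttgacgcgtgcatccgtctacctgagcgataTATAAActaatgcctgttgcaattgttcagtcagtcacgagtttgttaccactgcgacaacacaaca
CycE first start, chr2L:15748111-15748210, minus strand: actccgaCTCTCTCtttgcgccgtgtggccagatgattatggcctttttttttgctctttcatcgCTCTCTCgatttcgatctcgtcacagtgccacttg
CycE internal start, chr2L:15731745-15731844, minus strand: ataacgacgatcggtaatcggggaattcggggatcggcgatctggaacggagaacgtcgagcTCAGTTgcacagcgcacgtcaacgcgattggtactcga
AGO2 first start, chr3L:15554053-15554152, plus strand: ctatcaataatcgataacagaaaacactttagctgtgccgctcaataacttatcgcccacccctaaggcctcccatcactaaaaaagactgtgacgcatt
AGO2 internal start, chr3L:15556763-15556862, plus strand: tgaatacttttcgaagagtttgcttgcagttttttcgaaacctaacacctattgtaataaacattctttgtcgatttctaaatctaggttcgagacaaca

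The TATA box of the hb internal start begins 27 bases before it, and the DRE of the bru1 first start begins 48 bases before it. The CycE first start holds GAGA elements on the other strand, whose capitals read CTCTCTC. None of the motifs fell within the stretch shown for the ovo internal start, either mael start or either AGO2 start.

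In ovo, which encodes transcription factors required for the female germ line and, from an upstream start, the epidermal factor Shavenbaby, the first start carried no peak in any library. The internal start, 15960 bp downstream, had a fold enrichment (pileup at the summit over the local background of that library) of 5.41 and 6.19 (control) and 6.43 and 6.09 (lid KD). The groups overlapped. The window also holds the start of the noncoding gene lncRNA:CR44833. The ovo summits lay 553 and 530 bp after the start in control 2 and lid KD 1, outside the window, and inside it in the others. Values of replicates 1 and 2 of each group are given in that order here and throughout. In whole ovaries, fewer cells with the mark and less of the mark per cell cannot be told apart. The piRNA pathway gene mael likewise had no peak at its first start, and 3.87 and 5.53 (control) and 4.84 and 4.54 (lid KD) at the internal start, with summits 522 to 551 bp after it, just outside the window. Rbfox1, an RNA-binding protein that acts in germline differentiation, had 6.41 and 7.25 against 8.84 and 7.79 at its internal start (chr3L:10516003) and no peak at the first, and here the lid KD values lay above both controls. In bru1, the translational repressor of oskar RNA, only the window of start number 5 of 6 was touched by a peak, with 7.66 and 2.03 (control) and 3.20 and 11.9 (lid KD). The bru1 summit lay outside the window in control 1 and lid KD 2 (1042 and 994 bp after the start) and in control 2 (531 bp before it). In lid KD 1 alone it lay inside, 327 bp after the start. These values thus belong to different peaks that touch the window.

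The maternal transcript of hb, the gap gene hunchback, is known to come from the distal promoter and its zygotic transcript from the proximal promoter. The distal (first) start had 5.07 and 6.10 (control) and 6.76 and 6.67 (lid KD), and the proximal start was touched only by peaks in control 2 (3.05) and lid KD 1 (2.14) whose summits lay 1922 and 931 bp after it, outside the window. CycE, the G1 cyclin, had 2.90 and 3.61 against 3.60 and 4.01 at its first start, which it shares with an antisense RNA gene, and no peak at its internal start in any library. A near CycE start, 1540 bp downstream of the first, had 2.11 and 1.98 against 2.14 and 2.35, from separate peaks. Its window also holds the start of lncRNA:CR44974. The internal start of ct, a homeodomain factor of follicle cells, had no peak either (5.87 and 7.15 against 5.80 and 5.40 at the first start). The near ct start shares the peaks of the first. The internal start of mei-P26, a regulator of germline differentiation, also had none (3.86 and 4.82 against 4.00 and 3.99 at the first). For Sxl, the sex-determination switch, the first start was called in all libraries (5.06, 2.54, 2.91 and 2.50 in control 1, control 2, lid KD 1 and lid KD 2), and the internal start, 5170 bp downstream, was called in all but control 1, at 2.86, 2.21 and 2.15. A near Sxl start, 987 bp downstream of the first, had 5.06, 3.61, 6.61 and 6.39, with the summit inside the window in control 2 alone. In control 1 the first and near windows share 1 peak of 2268 bp.

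**Figure D1:**
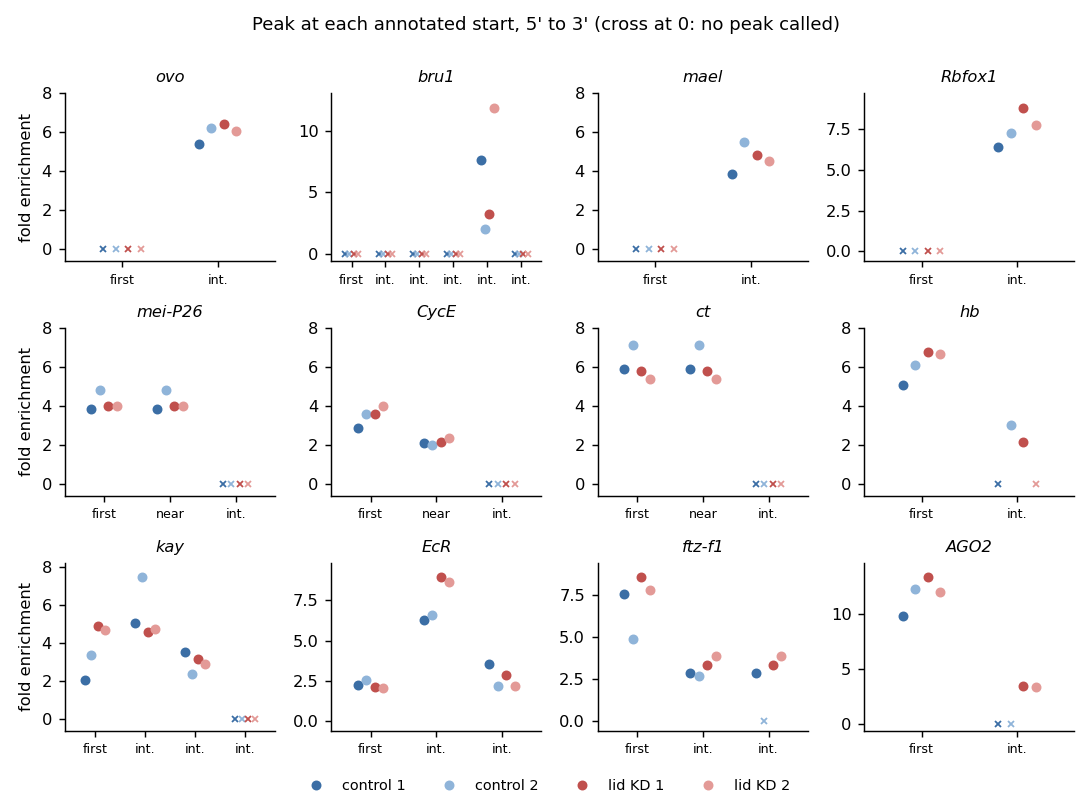
Fold enrichment of the peak at every annotated start of 12 multi-start genes, from the 5' to the 3' start on the x axis, with 1 point per library and a cross at 0 where no peak was called. The ovo, bru1, mael and Rbfox1 panels have points at an internal start alone, CycE, ct and mei-P26 have none at the internal start, and EcR, kay and ftz-f1 have points at both.

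Over all multi-start genes, first starts carried a peak more often than internal starts in every library. A peak shared at least 1 base with 54.5% and 59.8% of the first windows in the controls and with 53.2% and 54.0% in lid KD. The same held for 33.6% and 49.2% (control) and 33.5% and 35.0% (lid KD) of the internal windows. The difference was 20.9, 10.6, 19.8 and 19.0 percentage points in control 1, control 2, lid KD 1 and lid KD 2, with a mean of 17.6 (higher in 4 of 4 libraries, exact two-sided sign-flip permutation p = 0.13, the smallest that 4 libraries allow). A peak was found in all 4 libraries at 596 first windows (46.4%) and 546 internal windows (26.1%), and in none at 421 and 956. Control 2 stood apart. Its list held 25302 peaks, against 12087, 12832 and 13501 in control 1, lid KD 1 and lid KD 2, with the lowest background, 48.4 fragments per base against 55.5 to 60.1, and it alone called 295 internal and 110 first windows, with a median fold enrichment of 1.97 and 1.84. Control 1 alone called 35 and 34. The pair of lid KD libraries differed by no more than counting noise at the members (SD of 1.02 counting errors over 1132 windows, against 3.41 between the controls). With the pair counted as 1 sample the exact sign-flip p of this difference and of the others printed below as 0.13 is 0.25, the smallest that 3 samples allow.

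Windows that also hold the start of another gene were more common among first (378, 29.4%) than among internal windows (162, 7.74%), and a peak in such a window cannot be assigned to either gene. Among windows with no other gene's start, 46.5%, 54.4%, 45.0% and 45.6% of first windows and 31.4%, 47.8%, 31.6% and 33.2% of internal windows were called in control 1, control 2, lid KD 1 and lid KD 2, a mean difference of 11.9 points (exact sign-flip p = 0.13). Single-start genes with no neighbour were called at 34.7%, 47.3%, 33.3% and 34.2% in the same order, so first starts lay above them by 10.5 points on average (4 of 4 libraries, exact p = 0.13). Internal starts lay below single starts in 3 of 4 libraries, by 1.07 to 3.34 points in size, and above in control 2 (exact p = 0.25, or 0.5 when both lid KD libraries count once). With windows that hold another gene's start included, first starts lay above single starts by 4.05 points on average and by 1.39 in control 2 (exact sign-flip p = 0.13). The median fold enrichment of called windows was lower at first than at single starts (4.58, 4.54, 5.52 and 5.38 against 5.24, 5.72, 5.93 and 5.78). By distance from the first start, internal starts were called at 32.4%, 45.4%, 33.7% and 34.5% from 2 to 5 kb, at 36.4%, 53.5%, 35.5% and 37.1% from 5 to 10 kb, at 36.5%, 53.2%, 35.8% and 38.5% from 10 to 20 kb, at 28.8%, 48.0%, 28.3% and 30.5% from 20 to 50 kb, and at 34.9%, 47.0%, 33.1% and 33.1% beyond. The differences between these bins were not tested. By order, starts number 2 to 5 were called in 32.4% to 36.7% in the libraries other than control 2 and in 47.2% to 49.1% in control 2, and later starts in 34.6% to 37.5% and 59.6%. The number of annotated transcripts moved with the calls. The internal start with the most transcripts of its gene was called in 48.2%, 56.9%, 44.1% and 46.6%, and internal starts with fewer in 28.2%, 45.6%, 29.7% and 31.2%.

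**Figure D2:**
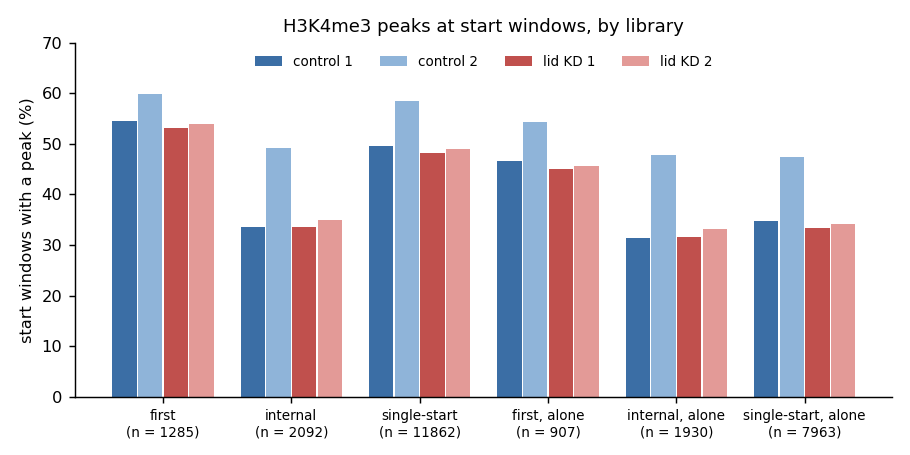
Share of start windows that share a base with an H3K4me3 peak (y axis, percent), by kind of window and library, where alone means that no other gene's start lies in the window. The first bars exceed the internal bars of the same library in every library, by 10.6 points in control 2 and by 19.0 to 20.9 points in the others.

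Taking a gene's starts together, a peak at some start was found in 71.4% and 81.6% (control) and 69.3% and 70.9% (lid KD) of multi-start genes, against 49.6%, 58.4%, 48.3% and 49.0% of single-start genes (mean difference 22.0 points, 4 of 4 libraries, exact sign-flip p = 0.13). A gene with more windows has more chances of a call, and the multi-start genes were longer (median 16309 bp against 1823 bp), so the comparison does not rate single promoters. Genes with starts under 2000 bp apart were at 66.7%, 73.2%, 64.4% and 66.1%.

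Multi-start genes were then sorted in each library by which start carried a peak. Control 1 had 375 genes with a peak at the first start only, 206 at an internal start only, 325 at both and 368 at none. Control 2 had 277, 269, 491 and 236, lid KD 1 had 345, 196, 339 and 395, and lid KD 2 had 340, 207, 354 and 374. The remaining 10 to 12 genes per library had a peak at a near start alone. Near starts did not count towards the other classes, so a first-only gene can also have a near start marked. The class was the same in all 4 libraries for 717 genes (55.8%), of which 180 were first only, 118 internal only, 233 both and 183 without a peak. Without control 2, 1017 genes (79.1%) kept their class. The lid KD pair placed 91.2% of genes alike, the control pair 61.6%. The 48 genes with 6 or more starts were internal only in 31.2% to 37.5% of cases and first only in 2.08% to 8.33%. The 683 genes with 2 starts were internal only in 13.2% to 20.2% and first only in 25.8% to 31.2%. A gene with more internal windows has more chances of an internal call, so these shares do not rate single starts.

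**Figure D3:**
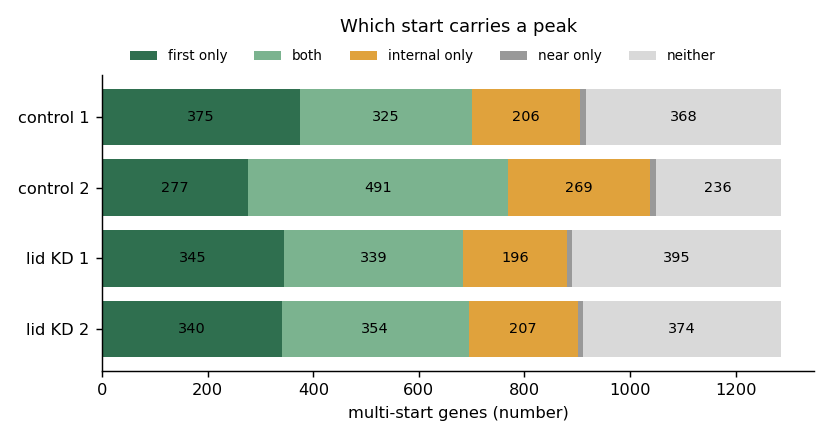
Number of multi-start genes (x axis) with a peak at the first start only, at both a first and an internal start, at an internal start only, at a near start only or at no start, for each library. Control 2 has the most genes with both (491) and the fewest with neither (236), and the other 3 libraries lie close together.

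The strongest genes of each stable class were as follows. Among first-only genes, CG2991 had 11.6 and 23.1 (control) and 19.2 and 19.2 (lid KD) at its first start (chr2L:2857164) and no peak at the start 5373 bp downstream. Its summits lay 761, 756, 754 and 727 bp before the start, outside the window, so a peak upstream of CG2991 touched it. CG33090, CG1513 and Unr, an RNA-binding protein of dosage compensation, followed, with mean fold enrichments of 14.2, 14.0 and 14.0 and summits within the window. The CG1513 window also holds the start of tea. Among internal-only genes, TM9SF4, a transmembrane protein gene, had 14.5 and 20.2 (control) and 17.6 and 17.8 (lid KD) at the start 24143 bp downstream of a first start without a peak. The dynein regulator nudC had 8.89 and 16.8 against 14.0 and 12.9 at its internal start, CG4991 had 9.50 and 13.4 against 14.9 and 14.4, and grsm, whose internal window also holds the start of Spc25, had 8.56 and 13.5 against 13.6 and 13.4.

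Of genes with both starts marked, Eip63E, a cyclin-dependent kinase gene, had 14.0 and 19.4 against 18.4 and 17.4 at its first start and 1.87 and 2.80 against 2.48 and 2.71 at its second. The transcriptional repressor gene cic had 11.6 and 19.9 against 17.9 and 16.3 at its first and 5.64 and 5.85 against 7.64 and 7.52 at its internal start, and AMPdeam and atos came next in mean fold enrichment. The genes without a peak that have the most starts were hydra with 7, and stumps, an adaptor of FGF signalling, Gr28b, a gustatory receptor gene, and CG43897 with 5 each.

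Where both starts carried a peak, the peak at the first was more often the stronger. The first start had the higher fold enrichment in 68.6%, 64.9%, 66.7% and 66.1% of such genes in control 1, control 2, lid KD 1 and lid KD 2, with medians of 4.44, 4.58, 5.36 and 5.39 at the first and 2.93, 2.72, 3.26 and 3.13 at the strongest internal start. Over all called windows the median fold enrichment was higher at first than at internal starts by 2.03 on average (4 of 4 libraries, exact sign-flip p = 0.13), and the median peak width by 170 bp (exact p = 0.13). Of the peaks that touched a window, 66.9% to 74.7% had their summit inside it at first and 72.8% to 75.4% at internal starts, so a value is not always that of a peak centred on the start. Summits inside the window lay mostly downstream of the start at both kinds, by a median of 184, 155, 195 and 188 bp at first starts and 200, 92.5, 177 and 172 bp at internal starts. An internal window was called more often when the first window of its gene was called (37.1%, 52.7%, 39.2% and 40.3%) than when it was not (29.2%, 43.4%, 26.6% and 28.2%), a mean difference of 10.5 points (exact p = 0.13).

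Marked and unmarked starts differed in sequence. In the 300 bases from 250 before to 50 after the start, and on either strand, the DRE (TATCGATA) was found in 12.6% of the 596 first starts called in all libraries, in 1.19% of the 421 first starts called in none, and in 7.93% of all 17177 protein-coding starts. The core of Ohler motif 1 (GGTCACACT) was found in 11.4%, 0.950% and 5.22% of the same sets. Among single-start genes, the 5359 starts called in all libraries held the DRE in 18.4% and the Ohler motif in 12.7%. Both shares lay above those of the called first starts. The 546 internal starts called in all libraries held the DRE in 4.40% and the Ohler motif in 3.48%, and the 956 called in none held them in 1.05% and 0.105%. Called internal starts stood out instead by the GAGA element (GAGAGAG), found in 24.9%, against 11.1% of uncalled internal starts, 12.2% of called first starts, 13.3% of uncalled first starts and 7.52% of all starts. The E-box (CAGCTG) was in 19.5% of called and 13.3% of uncalled first starts, and in 21.8% and 13.3% of internal starts, beside 17.6% of all starts. The initiator (TCAGTT) went the other way, at 20.6% of called and 37.1% of uncalled first starts and 28.6% and 32.5% of internal starts, beside 27.0% of all starts. The TATA box (TATAAA) was in 36.6% and 26.8% of first and 27.5% and 30.2% of internal starts, beside 42.7% of all starts. Hits were counted at any place in the 300 bases, so a match to such a short word need not be a working element. No motif contains another. These shares are descriptions of the letters, with starts of 1 gene sharing neighbouring sequence, and base composition moved with them. The median GC content was 40.3% in called and 45.0% in uncalled first starts, 44.8% and 43.3% in internal starts, and 48.7% in the 295 internal starts called by control 2 alone, of which 1.36% held the DRE. The part of base composition in the motif shares was not tested. Another gene's start lay in 246 of the called and 71 of the uncalled first windows, and in 80 and 42 of the internal windows. A motif of that gene's promoter can count here too, and motifs were not counted apart in windows without such a start.

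**Figure D4:**
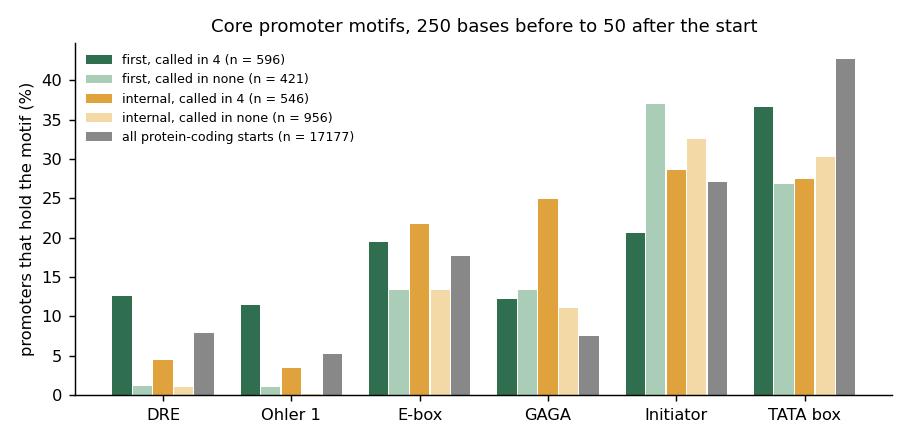
Share of promoters (y axis, percent) that hold each of 6 motifs on either strand between 250 bases before and 50 bases after the start, for first and internal starts called in all 4 libraries or in none, and for all protein-coding starts. Among the sets shown, the DRE and Ohler 1 bars are highest at called first starts (12.6% and 11.4%), and the GAGA bar is highest at called internal starts (24.9%). Called starts of single-start genes, with 18.4% for the DRE and 12.7% for Ohler 1, are not shown.

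Fixed lists of genes, chosen with earlier results of these data known, were described by their classes. Over all multi-start genes, 14.0% were first only, 9.18% internal only, 18.1% both and 14.2% without a peak in all 4 libraries, and 44.2% changed class between libraries. Of 25 genes known for alternative promoters, 20 were multi-start by the rule. In all 4 libraries 7 had both kinds of start marked, 2 the first only, 1 an internal only and none was without a peak, and 10 changed class between libraries. In EcR, the ecdysone receptor, the second start was the strongest, at 6.28 and 6.56 (control) and 8.95 and 8.63 (lid KD), against 2.26 and 2.55, and 2.12 and 2.05, at the first. In ftz-f1, a nuclear receptor gene, the first start had 7.57 and 4.91 against 8.59 and 7.83, and an internal start 2.86 and 2.69 against 3.31 and 3.85. The ftz-f1 first window also holds the start of lncRNA:CR45939. The first start of shot, a spectraplakin, had 8.38 and 11.3 against 14.1 and 13.9. In br, an ecdysone-response transcription factor gene, start number 4 had 2.46 and 2.72 against 2.73 and 2.40, while the first was called in control 2 alone (1.74). The Hox genes Antp and Abd-B were without a peak in control 1 and lid KD 1, and no peak of either gene was above 2.27 in any library.

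Of 19 multi-start genes of the list for oogenesis and maternal RNA, 8 had both kinds of start marked in all libraries, 4 an internal start only (bru1, ovo, mael and Rbfox1), 2 the first only (CycE and mei-P26) and none lacked a peak, while 5 changed class. CycE also had a near start marked in every library. Of 14 multi-start neuronal genes, 3 (slo, Syt1 and Rdl) had no peak in any library, 10 changed class and 1, dnc, had both. Library by library, 11, 3, 10 and 9 of the 14 had no peak in control 1, control 2, lid KD 1 and lid KD 2. Over all multi-start genes the shares without a peak were 28.6%, 18.4%, 30.7% and 29.1%. Of 7 muscle genes, 2 (up and wupA) had no peak, 1 (Tm1) had both, 1 (Zasp66) the first only and 3 changed class, and the first start was called in all libraries in 5. Of 13 ecdysone-response genes, 4 had both kinds of start marked in all libraries, 1 the first only (Eip93F), 1 an internal only (Hr3), and 7 changed class. Of 11 genes of follicle cell signalling, 6 had both, 1 the first only, 2 changed class and 2 an internal only. The internal-only genes were dpp, the BMP ligand, and shn, a transcription factor of the same pathway, which had 5.22 and 6.71 (control) and 8.03 and 8.25 (lid KD) at start number 4, with summits outside the window in all but control 1. Of 8 chromatin regulators, 5 had both and 3 changed class. Among marker genes over all starts, 4 of 6 germ cell markers were called in every library and aub and vas in none, 5 or 6 of 6 follicle cell markers were called, and none of 4 muscle or 4 testis markers. Of 4 neuronal markers, 1, 3, 2 and 2 were called in control 1, control 2, lid KD 1 and lid KD 2. A peak at some start was found in 69.3% to 81.6% of multi-start and 48.3% to 58.4% of single-start genes, depending on the library. So few markers cannot tell which cell types contribute. The 4 muscle markers do not stand for all muscle genes, since the first start was called in 5 of the 7 listed above.

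The comparison of lid KD with control asks whether depletion of the demethylase in germ cells changes which promoter is marked. The share of first-only genes was 25.4% ± 5.39 (SD, n = 2) in the controls and 26.7% in lid KD, a difference of 1.28 points (exact permutation p = 1). For internal-only genes the difference was -2.80 points (exact p = 0.667, -5.25 points without control 1 and -0.35 without control 2), for genes with both it was -4.79 points (exact p = 1). Genes without a peak were at 28.6% and 18.4% (control) and 30.7% and 29.1% (lid KD), which do not overlap, a difference of 6.42 points (exact p = 0.333, the smallest that 2 against 2 libraries allow, or 0.667 when both lid KD libraries count once). With lists of equal length this last difference was 0.58 points, without control 1 it was 11.6, and without control 2 it was 1.28. Without control 2 the first-only and both-start differences also turned, to -2.53 and 1.67 points. Classes that agreed within each group were had by 752 genes, and 35 of them changed between groups. The commonest changes were from both to first only (12 genes, such as orb, chinmo and Mical) and from first only to both (8 genes, such as AGO2, fzr and Trxr1). Between replicates, the class was the same in 91.2% of all multi-start genes for the lid KD pair and in 61.6% for the control pair. Whether the 35 changes exceed what such replicate differences give was not tested.

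Peaks lost from both lid KD libraries were few and mostly weak. Of the 3627 windows, 43 (1.19%) were called in both controls but in no lid KD library, beside 0.815% of all protein-coding start windows. They comprised 8 first, 34 internal and 1 near window, with a median fold enrichment of 1.94. The internal start of orb (chr3R:23270285), a gene that encodes a germline CPEB protein, had 1.42 and 2.47 in the controls, and that of chinmo, a BTB zinc-finger gene, had 1.49 and 1.92. The highest mean values among lost windows were those of hebe (4.05 and 1.76) and disco-r, a zinc-finger gene (2.29 and 3.42), at first starts, followed by internal starts of esn (1.77 and 3.32), tacc, a microtubule-associated protein gene (2.34 and 2.59), f, which encodes an actin-bundling bristle protein (1.65 and 2.96), Gdap2 (1.70 and 2.84) and Usp10, a deubiquitinase (1.72 and 2.78), and the first start of CG34417 (1.73 and 2.76). Summits lay outside the window for disco-r (1033 and 1073 bp after the start), Gdap2 (582 and 554 bp before it), Usp10 (589 and 1617 bp after it) and hebe, and in hebe the summit of control 1 lay 299 bp from the start of CG1663.

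Peaks gained in lid KD were fewer. In total 20 windows (0.551%) were called in both lid KD libraries and in neither control, beside 0.309% of all start windows, with 6 first, 12 internal and 2 near windows and a median fold enrichment of 1.82. The clearest at an internal start was that of AGO2, the Argonaute of the siRNA pathway, printed above, with 3.47 and 3.33 in lid KD and a summit 96 and 104 bp after the start. The first start of AGO2, 2710 bp upstream, was called throughout, at 9.79 and 12.3 (control) and 13.3 and 12.0 (lid KD). The highest values were at the first window of sick, 9.40 and 9.36, but the summits lay 679 and 705 bp before the sick start and 165 and 191 bp from the start of fs(2)ltoPP43. The peak in the Teh2 window (2.87 and 3.03) likewise lay nearer to the start of tipE. A peak of 2.61 and 2.36 served both an internal start of Ogdh, a citrate-cycle enzyme gene, and the first start of Cpr73D. The first start of Myo10A, a myosin gene, had 2.299 and 2.308, and internal starts of CG30389 and pico, an adaptor protein gene, had 2.20 and 2.50, and 1.96 and 2.29. The CG30389 summits lay 687 and 640 bp before the start, outside the window, and those of Myo10A and pico lay inside. Leaving out control 1 raised lost windows to 465 and gained windows to 113, and leaving out control 2 gave 120 and 110. With a library left out the rule asks less, so these counts cannot fall.

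Among the 1261 member windows called in all 4 libraries, peaks were also compared by percentile rank within their list. The rank was at least 10 points higher in both lid KD libraries than in either control in 10 windows (0.793%, beside 0.418% of all such start windows) and lower in 49 (3.89%, beside 2.20%). This balance depended on the ranking, since equal list lengths gave 58 higher and 30 lower, and ranks among the commonly called start windows, an alternative chosen after seeing the data, gave 137 and 22. The fold enrichments of the 5 windows with the largest rise follow. At the first start of CG7381 (chr3R:12977471) it was 1.88 and 3.10 (control) and 13.2 and 13.2 (lid KD). Its summits lay 203 and 224 bp after the start in the controls and 858 and 851 bp before it in lid KD, outside the window. The first start of Septin4, a cytoskeletal GTPase gene, had 5.17 and 3.18 against 11.4 and 10.7, and the near start of p53, the tumour suppressor homologue, 2.96 and 1.97 against 6.58 and 6.13. An internal start of sd, the TEAD factor of the Hippo pathway, had 3.51 and 1.88 against 7.28 and 7.07, and that of CG1677 1.60 and 2.06 against 3.92 and 3.86. The rule chose windows whose groups do not overlap. Summits in lid KD lay outside the window, away from at least 1 control's, for Septin4 (912 and 919 bp after the start, against 377 and 441), sd (674 and 676 bp after it, against 1393 before and 213 after) and p53 (670 and 676 bp after it, against 614 after and 252 before), so of the 5 the CG1677 values alone come from summits inside the window in every library. In the other direction, start number 6 of Eip75B, an ecdysone-induced nuclear receptor gene, had 2.54 and 2.12 against 1.49 and 1.54, an internal start of CG42354 had 3.88 and 2.92 against 1.87 and 1.70, and the first starts of CG9331, mask and Zasp52 had 1.90 and 2.41, 2.84 and 2.26, and 2.26 and 2.45 in the controls against 1.48 and 1.54, 1.81 and 1.68, and 1.66 and 1.70 in lid KD. The CG42354 summit lay inside the window in control 1 alone, and those of Eip75B and mask lay outside it in control 1.

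The balance between starts of the same gene was measured by the log2 ratio of the strongest internal to the first fold enrichment, in the 232 genes with different peaks at both in all libraries. The median was -0.54 and -0.32 (control) and -0.32 and -0.34 (lid KD), a difference of 0.10 (exact permutation p = 0.667), and of -0.06 without control 1. The first start was stronger in all 4 libraries in 125 genes and an internal start in 50. The SD of the ratio differences between libraries was 0.24 for the lid KD pair, 0.67 for the control pair and 0.51 to 0.62 across groups. The ratio was higher in both lid KD libraries than in either control by at least 0.5 in 8 genes (3.45% of those tested) and lower in 8 (3.45%).

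Genes whose balance moved towards the internal start include CG2841, with ratios of 0.78 and -0.40 (control) and 2.04 and 1.93 (lid KD), klar, which acts in nuclear and lipid droplet transport (-0.31 and -0.40 against 0.36 and 0.35), and dnc, the cAMP phosphodiesterase (-1.87 and -1.54 against -0.64 and -0.70). In klar the internal start went from 5.03 and 7.42 to 9.88 and 10.0, while the first had 6.24 and 9.79 against 7.69 and 7.86. The first window also holds the start of BORCS6, and the summits at both starts lay outside their windows, 507 to 578 bp before the first and 513 to 577 bp after the internal start. The summits at the CG2841 internal start lay 543 to 593 bp after it, outside the window. Mob2, a kinase regulator gene, and CG9331 were the others of the 5 largest. For dnc the strongest internal start was not the same in every library, its first summits lay 898 to 913 bp before the start, outside the window, and for Mob2 the first window also holds the start of CG7394, with summits 751 and 731 bp before the Mob2 start in the controls and 185 and 161 bp after it in lid KD. Towards the first start moved kay, the fly Fos gene, whose ratio was 1.31 and 1.15 (control) and -0.08 and 0.02 (lid KD). Its first start had 2.05 and 3.36 against 4.88 and 4.67, and its second start 5.07 and 7.46 against 4.60 and 4.74. The summits at the first start lay 483 and 535 bp before it in the controls and 363 and 346 bp after it in lid KD, and those of the second 773 to 800 bp after it, outside the window, so the ratio compares different summits at the first start. In hts, the adducin gene of the fusome and ring canals, the ratio was -1.81 and -1.87 against -2.93 and -2.92, with 5.92 and 10.4 against 12.4 and 12.0 at the first start and values from 1.58 to 2.84 at the internal start. The hts first window also holds the start of CalpA, and the internal summits lay outside the window in all but lid KD 2. LRR, whose first window also holds the start of Coq9, Cph and Nt5b completed the 5 largest, with lid KD ratios between -0.96 and -2.02. The groups of each of these genes do not overlap, as the rule requires.

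**Figure D5:**
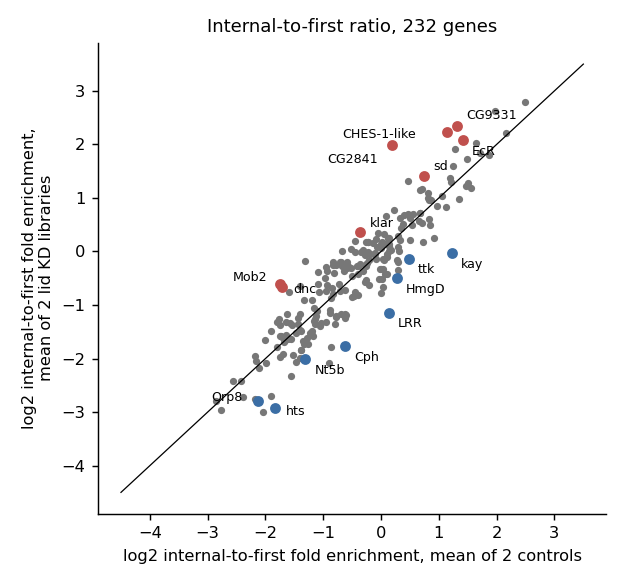
Log2 ratio of the strongest internal to the first fold enrichment in 232 genes, mean of the controls (x axis) against mean of the lid KD libraries (y axis), with the line of equality. Coloured points are the 8 genes above and the 8 below by the 0.5 margin, and kay, LRR and CG2841 lie farthest from the line.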

How the data were processed

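H3K4me3 ChIP-seq peak lists of 2 control and 2 lid KD ovary samples were used, grouped by their titles. Per the study's methods and the submitters' processing notes, the authors aligned paired-end reads to dm6 with Bowtie2 2.3.3, discarded reads that were not uniquely aligned or were duplicates (Picard 2.17.10) and called peaks in each library with MACS2 2.1.1 at a q-value threshold of 0.1. Use of an input library is not given in the sources used here. The deposited fold enrichment is a ratio of summit pileup to local background within a library. It therefore cannot show a change shared by all peaks. The deposited −log10 p-values and −log10 q-values served to solve pileups, for a stricter threshold (q of 0.01) and for an alternative ranking.

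Starts came from Ensembl release 115 (BDGP6). Of the 30618 annotated start codons, 99.8% read ATG in the genome used for sequences. A window was called when a peak shared at least 1 base with it, and it took the strongest such peak. Where a peak covers several windows they share it. Control 1 to lid KD 2 had a background of 60.1, 48.4, 55.5 and 56.6 fragments per base and median summit pileups of 281, 117, 350 and 291, with a counting error of 5.97%, 9.25%, 5.35% and 5.86% for a single summit. Read totals were not used. Counting errors cover counting only. The pileup solver and the window calls were tested on simulated data.

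Values per library were compared with exact two-sided permutation tests (smallest p 0.333) and sign-flip tests (smallest p 0.13), repeated with the lid KD pair counted once (smallest p 0.333 and 0.25), and counts were read beside the same share over all start windows. The members and gene lists were chosen with earlier results of these data known. Named genes were the list of known alternative promoters, the 4 strongest of each class (of genes without a peak, the 4 with most starts), the 8 strongest windows called in 1 group only in each direction, the 5 largest rank and ratio changes in each direction, and examples from the other lists. The orb and chinmo windows, the 35 genes of changed class and the genes shown by sequence were picked after their values were seen. Alternatives changed the window (250 bp), the overlap (250 bases, or the summit inside), the distance (5000 bp), the list length, the threshold, the ranking and the libraries used. Python 3, numpy, pandas, scipy and matplotlib were used.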

Additional observations from a re-analysis of the deposited data

How the results depend on the processing

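Of the results under alternative settings, 116 were rated as kept, 36 as moved and 5 as changed in sign. A count was kept when it stayed within a fixed factor of its main value, and moved when it did not. A difference was kept whenever its sign held, whatever its size, so the 116 do not show that sizes were stable. The 5 changes of sign were all in differences between lid KD and control. The excess of first over internal windows, the excess of multi-start over single-start genes and the excess of genes without a peak in lid KD kept their direction under every alternative run, the last falling to 0.58 points with lists of equal length. With the summit required inside the window, the first-only difference was -0.82 points, lost windows numbered 67, windows ranked higher 4, and genes with a higher or lower ratio 3 and 3. With lists of equal length, the difference for both starts was 1.01 points, gained windows numbered 39, and windows ranked higher and lower 58 and 30. With 250 bp windows 5 genes had a higher ratio, with at least 250 shared bases 5 windows ranked higher and 28 lower and 2 genes had a higher ratio, and without windows near another gene's start 5 genes did. With starts at least 5000 bp apart 8 windows were gained, and ranks by −log10 p gave 4 higher. Ranks among the commonly called start windows, chosen after seeing the data, gave 137 higher and 22 lower. Summit pileups gave 16 genes with a lower ratio, and no margin gave 64 higher and 61 lower. The cause of these changes was not tested. Leaving out 1 library at a time gave first-only differences from -2.53 to 5.10 points, internal-only differences from -5.25 to -0.35 points, differences for genes without a peak from 1.28 to 11.6 points, both-start differences from -11.2 to 1.67 points, a median ratio difference from -0.062 to 0.24, 58 to 465 lost and 27 to 113 gained windows, 12 to 237 windows ranked higher and 77 to 678 lower, and 11 to 43 genes with a higher and 12 to 51 with a lower ratio. The highest counts came from leaving out a control. With a library left out, the rules for lost, gained, rank and ratio counts ask less, so these counts cannot fall.

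The difference of control 1 and 2 did not go with that of lid KD 1 and 2 (r = -0.02 over 1132 windows, which are not independent). The lid KD pair differed by no more than counting noise, so this r cannot decide whether replicate numbers pair the samples. With the replicate block, differences were 1.28, -2.80, -4.79 and 6.42 points for first-only, internal-only, both and unmarked genes and 0.10 for the ratio, with exact p between 0.5 (the smallest that 2 pairs allow) and 1.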
